A study of Homo sapiens with 16 samples.

Results

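The genes described here moved the same way under olaparib in both ovarian carcinoma lines of the study, with all 4 olaparib libraries apart from all 4 DMSO libraries in each line. They were found in the gene counts of 16 libraries. A gene was a member when its 4 CPM values (counts scaled to library size by the trimmed mean of M values) with olaparib all lay above, or all lay below, the 4 DMSO values in OVCAR3 and also in UWB1.289. Of 14243 genes with enough counts to test, 649 were members, 376 of them higher and 273 of them lower with olaparib. The members higher with olaparib were 2.64% and those lower were 1.92% of the genes tested, whereas 100 genes (0.702%) were apart in both lines in opposite directions.

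Both lines derive from serous ovarian carcinoma, and UWB1.289 carries a deleterious BRCA1 mutation while BRCA1 is intact in OVCAR3. OVCAR3 received 7.5 µM olaparib and UWB1.289 received 3.5 µM, each for 96 h, and the controls received the DMSO vehicle for the same time. OVCAR3 grew in RPMI1640 with insulin and a higher share of serum, and UWB1.289 grew in a mixture of mammary epithelial growth medium and RPMI1640 with a low share of serum. Each BRCA1 state was thus a single line with its own dose and medium, so line, BRCA1 state, dose and medium cannot be told apart. The 4 replicates of a group carried replicate numbers, and nothing stated that they came from separate cultures on separate days, so the p-values measure the spread between these samples, which may be technical.

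Olaparib binds the catalytic site of the poly(ADP-ribose) polymerases PARP1 and PARP2 and holds them on damaged DNA, and cells without homologous recombination repair are especially sensitive to it. DNA that reaches the cytoplasm is sensed by cGAS and STING, which signal through IRF3 to type I interferon genes and through NF-kB to cytokine and chemokine genes. Interferon acts through STAT and IRF factors on antiviral and antigen presentation genes, and NF-kB also switches on its own inhibitors, such as TNFAIP3 and NFKBIA, in the same cells.

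Total counts per library ranged from 5599571 to 7730228, and mitochondrially encoded genes took 10.41 to 13.66% of them. In a principal component analysis the lines lay at opposite ends of a first component with 82.9% of the variance, and a second component with 4.54% parted olaparib from DMSO libraries. The transcripts of the drug targets did not pass the test: PARP1 was at 264 to 277 CPM with DMSO and 282 to 296 CPM with olaparib in OVCAR3 and at 259 to 325 CPM with DMSO and 267 to 320 CPM with olaparib in UWB1.289, with an additive log2 fold change of 0.03 ± 0.0583 (SE, adjusted p = 0.74), and that of PARP2 was 0.09 ± 0.087 (SE, adjusted p = 0.501). BRCA1 was at 40.4 to 51.3 CPM with DMSO and 47.6 to 52.2 CPM with olaparib in OVCAR3 and at 21.4 to 28.4 CPM with DMSO and 21.5 to 25.1 CPM with olaparib in UWB1.289. Libraries primed at the 3′ end of transcripts do not check a coding mutation upstream. All 12 ovarian carcinoma markers listed were read in OVCAR3, whereas WT1 had no count in the DMSO libraries of UWB1.289. Of 17 markers of leukocytes, endothelium and fibroblasts, MS4A1 and LUM were at 0 in all libraries and CD3D, CD3E, ITGAM, CSF1R and DCN had 5 counts or fewer in total. The summed level of the 17 was 2.48 to 4.73 CPM with DMSO and 3.35 to 6.43 CPM with olaparib in OVCAR3, and 13.5 to 20.5 CPM and 25.7 to 29.1 CPM in UWB1.289. PTPRC, CD14, PECAM1 and CDH5 held most of it in UWB1.289, and the part of this rise in the results below was not tested.

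The olaparib effect averaged over the lines came from an additive model of line and treatment in edgeR's quasi-likelihood test. Adjusted p-values for a single line, for the difference between the lines or for the mean of the lines came from contrasts of a fit with the 4 groups. All are quasi-likelihood p-values with Benjamini-Hochberg adjustment over the 14243 genes, except where DESeq2 is named. Since the members were chosen by their separation, their fold changes and p-values from these fits are a description of size and spread. At an adjusted p below 0.1, a change beyond 2-fold and a mean normalised count above 10, the additive fit called 263 genes up (1.85% of those tested) and 100 down (0.702%). Members made up 134 of the 263 and 14 of the 100. Without UWB1.289 DMSO replicate 3 the count of members called down was 23, and without UWB1.289 olaparib replicate 1 it was 27. Membership was then judged anew on the libraries left, and a rule over fewer libraries is easier to meet. The other 129 genes called up comprised 60 that were apart in OVCAR3 alone, 59 in UWB1.289 alone and 10 in neither. At an adjusted p below 0.1 with no fold threshold, 1986 genes were higher (13.9%) and 1950 lower (13.7%), and they included 375 of the 376 higher members and 271 of the 273 lower ones. Those are the members said below to have risen or fallen.

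The members higher with olaparib changed by more than those that were lower. The median log2 fold change was 0.769 over the 376 and -0.445 over the 273, against -0.00656 over all genes tested. Of the 376, 29 rose by more than 4-fold and 112 by 2-fold to 4-fold, while 134 changed by less than 1.5-fold. Of the 273, 1 fell by more than 4-fold, 13 by 2-fold to 4-fold, and 199 changed by less than 1.5-fold. When libraries were scaled by total counts alone, 449 genes were higher and 190 lower and apart in both lines, so the balance between the directions depended on the scaling. The members were more deeply counted than most genes, with a median mean normalised count of 215 for those higher and 310 for those lower, against 112 over all genes tested. Protein-coding genes made up 354 of the 376 and 264 of the 273. Each line alone held many more genes with separated groups: 1691 higher (11.9%) and 1755 lower (12.3%) in OVCAR3, and 1055 higher (7.41%) and 908 lower (6.38%) in UWB1.289.

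**Figure D1:**
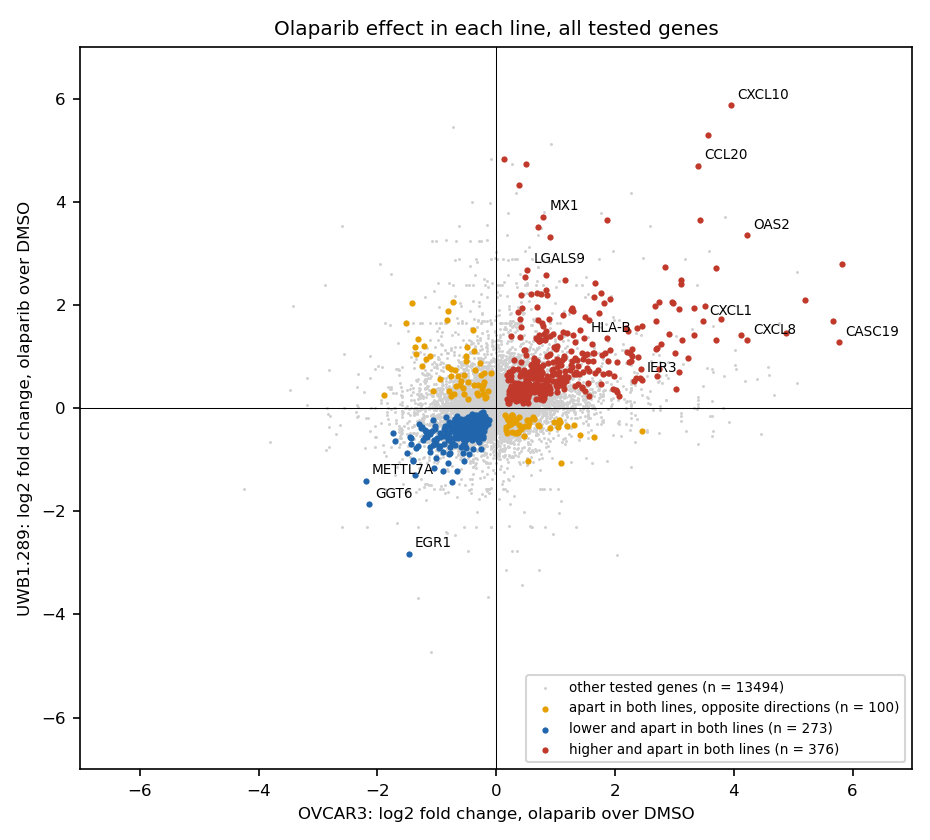
Log2 fold change of olaparib over DMSO in OVCAR3 (x axis) and in UWB1.289 (y axis) for the 14243 genes tested. Red points are the 376 genes higher and apart in both lines, blue points the 273 lower, orange points the 100 apart in opposite directions and grey points all others; the red points reach farther from 0 than the blue ones.

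The lists with the largest shares of higher members were immune and inflammatory, although many members that rose by more than 4-fold were on no list. Of 36 gene lists with 1044 genes, 916 genes were tested, and 114 of the 376 higher members and 32 of the 273 lower members were on a list. Higher members made up 13 of the 25 tested chemokine and cytokine genes (52.0%), 11 of 23 NF-kB subunits and regulators (47.8%), 7 of 15 complement and acute phase genes (46.7%), 9 of 20 antigen presentation genes (45.0%) and 23 of 64 interferon-induced effectors (35.9%). None of these 5 lists held a lower member. The largest share of lower members was in cholesterol and fatty acid synthesis, with 14 of 32 genes (43.8%) and no higher member. The lists were written with earlier results of these data known, so the shares are descriptions. Of the members that rose by more than 4-fold and were on no list, PI3, a secreted protease inhibitor (2.34 ± 0.125), GATA2, a zinc finger factor (2.25 ± 0.236), NGFR, the low-affinity neurotrophin receptor (2.31 ± 0.350), and IGFL1 (2.06 ± 0.193, with 1 read against 12 in OVCAR3, a ratio of 11.5 with a counting interval of 1.7 to 492) are given as additive log2 fold changes with SE and were chosen after their values were seen.

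**Figure D2:**
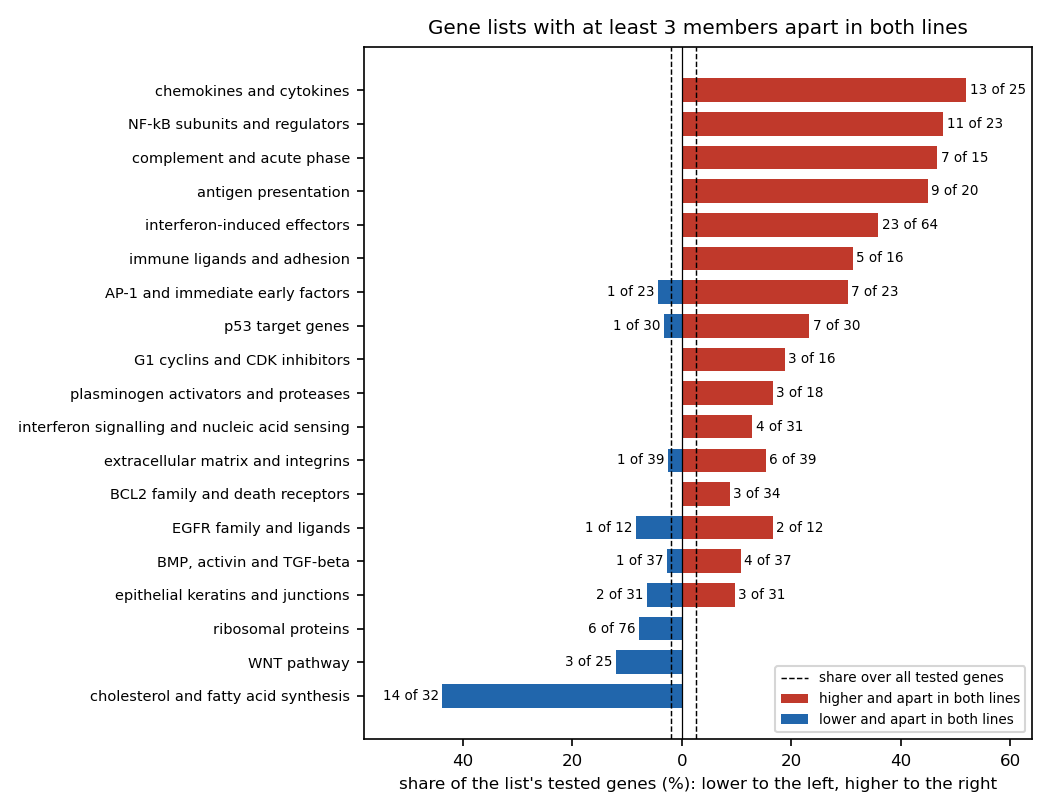
Share of each gene list's tested genes that were higher (red, to the right) or lower (blue, to the left) and apart in both lines, for the lists with at least 3 such members. Dashed lines mark the shares over all genes tested, 2.64% and 1.92%, and the chemokine, NF-kB, acute phase and antigen presentation lists reach 45.0 to 52.0% on the higher side.

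Chemokines that draw T cells, neutrophils and dendritic cell precursors were among the members. Of the 25 tested chemokine and cytokine genes, 19 were higher in OVCAR3 and 21 in UWB1.289 at an adjusted p below 0.1, and 0 were lower in either line. The share of all genes tested that passed within each line is not given here. In the additive fit 22 (88.0%) passed an adjusted p below 0.1 as higher, against 13.9% of all genes tested, and 0 as lower. Of the 25, 18 were called up, and the median log2 fold change was 1.76. CXCL10, the interferon-induced ligand of CXCR3 on T cells, had the largest increase of all members. CXCL10 (ENSG00000169245, chr4:76021118-76023497) was at 0.301, 0.167, 0.16 and 0.396 CPM in the DMSO libraries and 14.2, 18.9, 17.7 and 15.8 CPM in the olaparib libraries in UWB1.289. In OVCAR3, CXCL10 was at 0.165, 0, 0 and 0 CPM in the DMSO libraries and 1.4, 0.468, 0.712 and 0.959 CPM in the olaparib libraries, far lower than in UWB1.289. The 4 OVCAR3 DMSO libraries held a single CXCL10 read against 24 with olaparib, a ratio of 23.0 with a 95% counting interval of 3.76 to 947. The additive log2 fold change was 5.66 ± 0.33 (SE, adjusted p = 4.45e-12). CCL20 (ENSG00000115009, chr2:227805739-227817564), which attracts CCR6-positive lymphocytes and dendritic cells, was at 1.32, 0.525, 0.434 and 0.287 CPM in the DMSO libraries and 11, 5.62, 8.54 and 2.06 CPM in the olaparib libraries in OVCAR3. In UWB1.289, CCL20 was at 0.151, 0.167, 0.16 and 0 CPM in the DMSO libraries and 0.826, 7.3, 2.89 and 2.91 CPM in the olaparib libraries, with 3 reads in all DMSO libraries against 83, a ratio of 30.6 (10.1 to 152). The lowest olaparib library of UWB1.289 stood well under the other 3 but above every DMSO library, and the additive change was 3.76 ± 0.473 (SE, adjusted p = 2.37e-06).

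Neutrophil-attracting CXC chemokines, the ligands of CXCR2, rose together from neighbouring genes. CXCL1, CXCL2, CXCL3, CXCL5 and CXCL8 lie within 359 kb at chr4:73740519-74099196, and their additive log2 fold changes ran from 1.99 to 2.86. CXCL2 was at 1.16, 1.93, 2.17 and 1.58 CPM in the DMSO libraries and 21.8, 13.4, 17.1 and 7.4 CPM in the olaparib libraries in OVCAR3. In UWB1.289, CXCL2 was at 1.51, 0.334, 0 and 1.19 CPM in the DMSO libraries and 2.97, 6.76, 3.85 and 3.52 CPM in the olaparib libraries. The groups were apart in both lines, and the additive change was 2.86 ± 0.31 (SE, adjusted p = 2.4e-07). CXCL3 was at 0.496 to 2.61 CPM with DMSO and 7.55 to 13.5 CPM with olaparib in OVCAR3 and at 0.792 to 1.84 CPM with DMSO and 6.26 to 12.1 CPM with olaparib in UWB1.289, and its additive change was 2.79 ± 0.248 (SE, adjusted p = 9.87e-09). CXCL1 was at 14.6, 17.3, 11.6 and 11 CPM in the DMSO libraries and 197, 155, 139 and 114 CPM in the olaparib libraries in OVCAR3. In UWB1.289, CXCL1 was at 49.1, 49.9, 35.4 and 46.1 CPM in the DMSO libraries and 124, 192, 122 and 141 CPM in the olaparib libraries. The olaparib levels of the lines overlapped for CXCL1 while the DMSO levels did not, and the log2 fold change was 3.48 ± 0.173 in OVCAR3 and 1.68 ± 0.151 in UWB1.289. CXCL8 was at 0.661, 1.75, 1.59 and 0.717 CPM in the DMSO libraries and 27.8, 20.3, 23.6 and 17.4 CPM in the olaparib libraries in OVCAR3. CXCL8 was at 36.8, 34.9, 24.4 and 37.6 CPM in the DMSO libraries and 80.4, 97.7, 71.7 and 83.8 CPM in the olaparib libraries in UWB1.289, where the DMSO level overlapped the OVCAR3 olaparib level. CXCL1, CXCL2 and CXCL3 are closely similar copies, and how reads were shared among them in counting was not tested. The other higher members of the list were TNF (2.27), CXCL5 (1.99, with 2 reads against 26 in OVCAR3, a ratio of 12.5 with a counting interval of 3.12 to 108), CX3CL1 (1.84), LTB (1.76), CSF1 (1.5), IL23A (1.16) and CXCL16 (0.83), given as additive log2 fold changes.

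NF-kB feedback genes rose beside the chemokines. Of 23 tested NF-kB subunits and regulators, 18 passed as higher and 0 as lower, 8 were called up, and the median log2 fold change was 0.65. TNFAIP3 (ENSG00000118503, chr6:137867214-137883314), the A20 enzyme that edits ubiquitin chains and ends NF-kB signalling, was at 7.77, 5.43, 8.54 and 8.03 CPM in the DMSO libraries and 47.4, 46.4, 41 and 56.3 CPM in the olaparib libraries in OVCAR3. In UWB1.289, TNFAIP3 was at 17.3, 15.7, 20.7 and 19.5 CPM in the DMSO libraries and 66.7, 61, 81 and 78.6 CPM in the olaparib libraries. Every olaparib library held more than 2-fold the level of every DMSO library of its line, and the additive change was 2.27 ± 0.12 (SE, adjusted p = 8.35e-13). BIRC3 (ENSG00000023445, chr11:102317484-102339403), an inhibitor of apoptosis and ubiquitin ligase, was at 0, 0.7, 0.579 and 0.574 CPM in the DMSO libraries and 5.91, 4.99, 6.26 and 4.93 CPM in the olaparib libraries in OVCAR3. BIRC3 was at 25.6, 31.2, 32.4 and 35.1 CPM in the DMSO libraries and 110, 109, 138 and 133 CPM in the olaparib libraries in UWB1.289, where the DMSO level already exceeded the OVCAR3 olaparib level, and the additive change was 2.15 ± 0.151 (SE, adjusted p = 1.63e-10). NFKBIZ, an atypical nuclear inhibitor that co-activates a subset of NF-kB targets, was at 9.41 to 12.5 CPM with DMSO and 21.9 to 27.6 CPM with olaparib in OVCAR3 and at 5.28 to 9.01 CPM with DMSO and 22.3 to 27.8 CPM with olaparib in UWB1.289. RELB, the subunit of the non-canonical pathway, was at 15.7 ± 1.98 CPM with DMSO and 44.1 ± 9.03 CPM with olaparib in OVCAR3 (mean ± SD, n = 4) and at 24.9 ± 1.64 CPM with DMSO and 51.1 ± 2.53 CPM with olaparib in UWB1.289, and its additive change was 1.25 ± 0.101 (SE, adjusted p = 1.98e-09). The inhibitors NFKBIE (1.16), NFKBIA (1.06) and NFKBIB (0.62), the adaptors TNIP1 (0.78), TRAF2 (0.65) and TRAF3 (0.58), and TNFAIP2 (1.18) completed the 11 members.

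Promoters were read from RefSeq (GRCh38.p14) as 250 bases before to 50 bases after each transcript start, and 482 of the 649 members had 723 of the 35116 promoters. The kappa-B motif GGNNTTTCC was searched on both strands, and hits of different motifs were counted separately where they overlapped. It was in 61 of 391 promoters of higher members (15.6%), in 8.43% of those of lower members, in 6.73% of those of all genes tested and in 6.26% of all RefSeq promoters. Among members, 9 of 11 promoters of the chemokine list and 9 of 12 of the NF-kB list held it, as did 4 of 14 (28.6%) of the cholesterol and fatty acid synthesis list, whose members were lower. CXCL1, CXCL2 and CXCL3 shared the letters of the site and its place, starting 53 bases before the transcript start. The windows below show the site nearest the start, in capitals on whichever strand it lies, in the leading members of these lists with a motif and in ICAM1, so that the letters can be compared; all run 5′ to 3′ on the strand of the gene. They lie at chr4:76023645-76023693 (minus strand) for CXCL10, chr2:227813743-227813791 (plus strand) for CCL20, chr4:74099220-74099268 (minus strand) for CXCL2, chr6:137867184-137867232 (plus strand) for TNFAIP3, chr11:102317265-102317313 (plus strand) for BIRC3 and chr19:10270914-10270962 (plus strand) for ICAM1. The AP-1 motif TGANTCA was in 7.93% of promoters of higher members, 3.92% of those of lower members, 5.23% of those of all genes tested and 7.71% of all RefSeq promoters. A match is a description and not a bound site.
CXCL10: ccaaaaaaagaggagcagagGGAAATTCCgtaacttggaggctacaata
CCL20: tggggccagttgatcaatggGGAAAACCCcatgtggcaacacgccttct
CXCL2: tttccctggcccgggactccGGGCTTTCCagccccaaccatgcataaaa
TNFAIP3: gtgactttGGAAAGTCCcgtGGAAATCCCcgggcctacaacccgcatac
BIRC3: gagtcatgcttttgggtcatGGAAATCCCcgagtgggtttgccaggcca
ICAM1: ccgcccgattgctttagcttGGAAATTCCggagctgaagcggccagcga

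All 64 tested interferon-induced effectors were higher in UWB1.289 at an adjusted p below 0.1, whereas 24 were higher and 1 lower in OVCAR3. By the interaction contrast 50 of them rose further in UWB1.289 than in OVCAR3. The share of all genes tested that passed within each line is not given here. In the additive fit 61 (95.3%) passed as higher, against 13.9% of all genes tested, 0 passed as lower, and 37 were called up. The median log2 fold change was 0.35 in OVCAR3 and 1.90 in UWB1.289. The list held 23 members, while many others were apart in UWB1.289 alone and EPSTI1 was apart in opposite directions, with log2 fold changes of -0.82 in OVCAR3 (adjusted p = 0.000706) and 1.89 in UWB1.289. OAS1, which passed in UWB1.289 (2.5), was at -0.21 in OVCAR3 (adjusted p = 0.42). OAS2 (ENSG00000111335, chr12:112978395-113011723), which makes the oligoadenylates that activate RNase L, was at 15.5, 19.9, 13.2 and 19 CPM in the DMSO libraries and 182, 160, 179 and 171 CPM in the olaparib libraries in UWB1.289. In OVCAR3, OAS2 was at 0.165, 0, 0 and 0 CPM in the DMSO libraries and 2.02, 0.312, 1.28 and 0.685 CPM in the olaparib libraries, and 1 read against 29 gave a ratio of 27.8 with a 95% counting interval of 4.62 to 1140. The additive change was 3.36 ± 0.149 (SE, adjusted p = 5.08e-14). OAS3 (ENSG00000111331, chr12:112938051-112976460), its neighbour, was read in all libraries. OAS3 was at 12.9, 18, 12.7 and 12.9 CPM in the DMSO libraries and 29.7, 32, 30.8 and 33.2 CPM in the olaparib libraries in OVCAR3. In UWB1.289, OAS3 was at 47.3, 62.6, 46.1 and 58.4 CPM in the DMSO libraries and 311, 278, 292 and 314 CPM in the olaparib libraries, and the log2 fold change was 1.16 ± 0.122 in OVCAR3 and 2.48 ± 0.101 in UWB1.289.

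MX1 (ENSG00000157601, chr21:41420020-41470071), a GTPase that traps viral nucleocapsids, started from similar levels in the lines and ended far apart. MX1 was at 13.4, 15.8, 15.1 and 14.5 CPM in the DMSO libraries and 25.5, 28.1, 24.3 and 24 CPM in the olaparib libraries in OVCAR3. In UWB1.289, MX1 was at 13.7, 25.5, 15.3 and 25 CPM in the DMSO libraries and 274, 214, 259 and 298 CPM in the olaparib libraries. The log2 fold change was 0.79 ± 0.156 in OVCAR3 and 3.71 ± 0.141 in UWB1.289, and the difference between them was 2.92 ± 0.21 (SE, adjusted p = 9.69e-11). IFIT3, which binds foreign RNA together with other IFIT proteins, was at 7.03 to 10.4 CPM with DMSO and 12.5 to 15.5 CPM with olaparib in OVCAR3 and at 7 to 9.34 CPM with DMSO and 75.1 to 97.5 CPM with olaparib in UWB1.289. IFIT2 was at 2.73 to 3.5 CPM with DMSO and 4.99 to 5.98 CPM with olaparib in OVCAR3 and at 5.67 to 6.03 CPM with DMSO and 31.5 to 39.5 CPM with olaparib in UWB1.289. Within each line the olaparib and DMSO libraries of MX1, IFIT3 and IFIT2 did not overlap. The other higher members with a called change were IFI27 (1.74), ISG15 (1.67), TNFSF10 (1.53), GBP1 (1.5), HELZ2 (1.34), APOL1 (1.27), PLSCR1 (1.2), PARP14 (1.18) and GBP2 (1.08). Guanylate-binding proteins GBP1 to GBP5 lie within 266 kb at chr1:89006679-89272860 and were all members, with additive changes from 0.66 to 2.0. Among regulators, IRF7, the factor that amplifies interferon production, was at 6.3 to 7.97 CPM with DMSO and 11.4 to 12.8 CPM with olaparib in OVCAR3 and at 11.8 to 13.3 CPM with DMSO and 36.7 to 42.5 CPM with olaparib in UWB1.289 (additive change 1.27 ± 0.126, SE, adjusted p = 6.32e-08). IRF1 was at 30.9 to 33.1 CPM with DMSO and 44.6 to 62.1 CPM with olaparib in OVCAR3. Its UWB1.289 levels were 10.7 to 15.3 CPM with DMSO and 33.3 to 39 CPM with olaparib (additive change 1.03 ± 0.11, SE, adjusted p = 1.81e-07). STING1 (0.49) was another member, at 0.58 in OVCAR3 (adjusted p = 0.0374) and 0.41 in UWB1.289 (adjusted p = 0.223). CGAS was not a member (additive change 0.09, adjusted p = 0.784). Its means were 0.131 CPM with DMSO and 0.0745 CPM with olaparib in OVCAR3, and 23.2 and 25.1 CPM in UWB1.289. Of 31 tested genes of interferon signalling and nucleic acid sensing, 18 passed as higher and 0 as lower.

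The core of the interferon-stimulated response element, GAAANNGAA, was in 13.8% of the 391 promoters of higher members, in 6.93% of the 332 promoters of lower members, in 6.44% of those of all genes tested and in 8.11% of all RefSeq promoters, searched on both strands. Among the interferon-induced effectors that were members, 19 of 25 promoters held it, and 3 of 25 held the kappa-B motif. Among the named genes CXCL10, CXCL2, CXCL3, GBP1, ISG15, NFKBIA, NFKBIZ, OAS3 and TAP1 held both motifs before a start. The windows below show it in capitals for the leading members with a motif, at chr4:76023690-76023738 (minus strand) for CXCL10, chr21:41431835-41431883 (plus strand) for MX1, chr10:89332459-89332507 (plus strand) for IFIT3, chr12:112938442-112938473 (plus strand) for OAS3 and chr6:32853803-32853851 (minus strand) for TAP1. MX1 has 3 promoters in the RefSeq set and IFIT3 and TAP1 have 2 each, and windows of their other starts are not shown.
CXCL10: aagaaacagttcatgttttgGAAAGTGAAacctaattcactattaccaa
MX1: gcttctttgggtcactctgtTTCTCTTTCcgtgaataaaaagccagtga
IFIT3: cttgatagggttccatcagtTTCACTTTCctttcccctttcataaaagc
OAS3: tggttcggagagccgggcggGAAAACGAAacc
TAP1: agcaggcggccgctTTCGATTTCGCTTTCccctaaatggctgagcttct

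**Figure D3:**
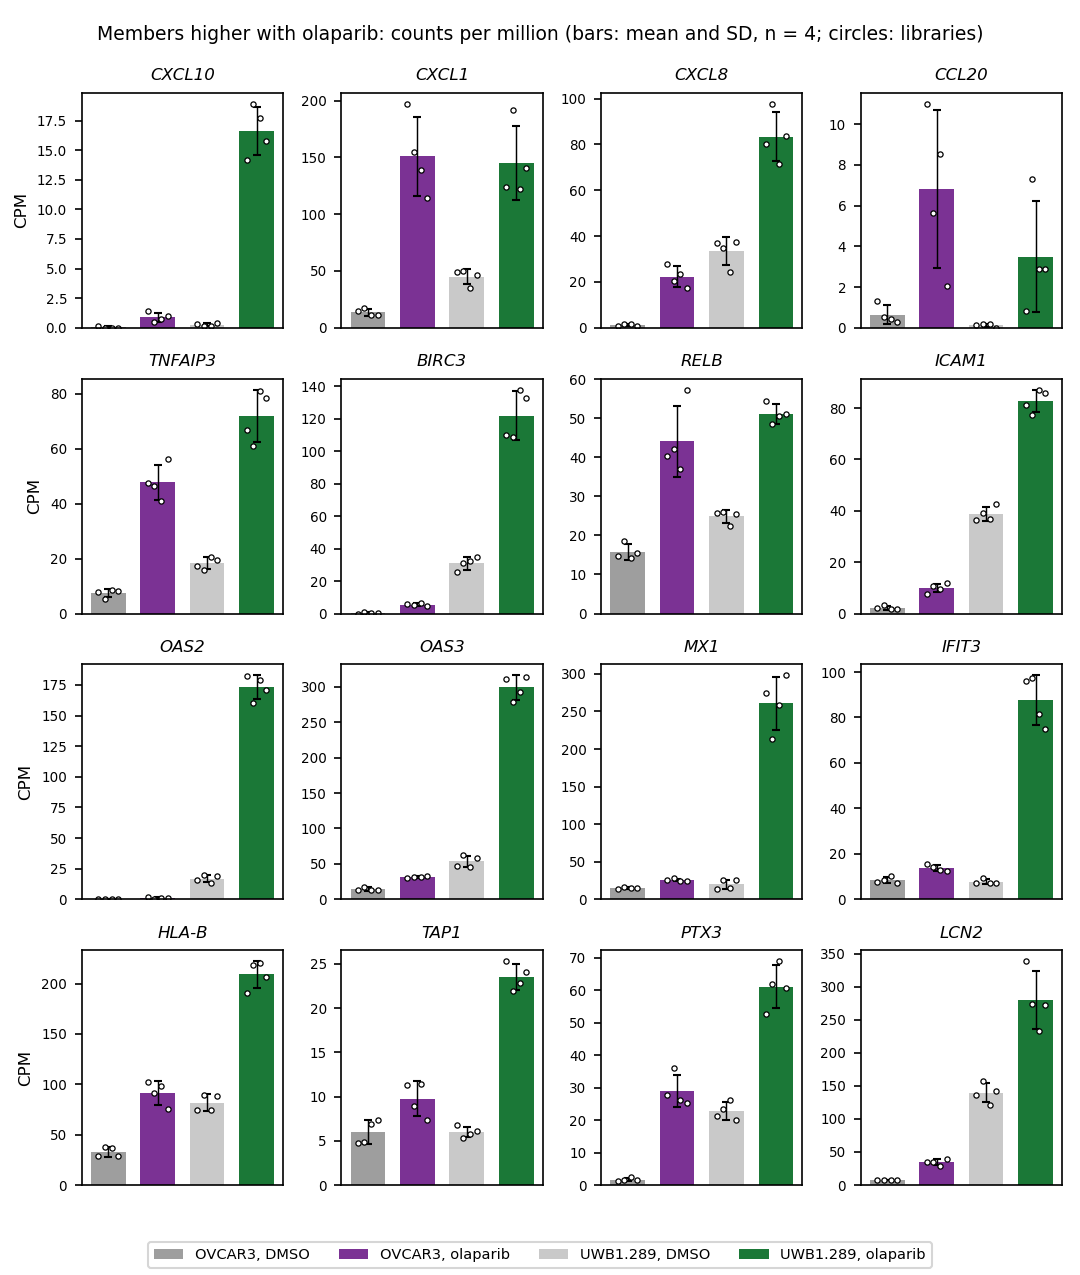
CPM of 16 higher members in the 4 groups (bars are the mean with SD, n = 4, and circles are libraries; each panel has its own linear axis from 0). Olaparib libraries lie above the DMSO libraries of the same line in every panel, and OAS2, MX1 and IFIT3 reach 160 to 182, 214 to 298 and 75.1 to 97.5 CPM in UWB1.289 with olaparib.

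Genes of antigen presentation by HLA class I rose together. Of 20 tested genes, 14 passed as higher and 0 as lower, and 9 were members. HLA-B (ENSG00000234745, chr6:31353872-31367067), a class I heavy chain, was at 28.6, 37.5, 36.6 and 28.7 CPM in the DMSO libraries and 102, 91.3, 98.5 and 75 CPM in the olaparib libraries in OVCAR3. In UWB1.289, HLA-B was at 74.5, 88.9, 74.1 and 88.6 CPM in the DMSO libraries and 191, 218, 220 and 207 CPM in the olaparib libraries. The additive change was 1.41 ± 0.0782 (SE, adjusted p = 1.56e-12), and the difference between the lines was -0.13 ± 0.148 (SE, adjusted p = 0.705). TAP1, which carries peptides into the endoplasmic reticulum, was at 4.79, 4.9, 6.95 and 7.31 CPM in the DMSO libraries and 11.3, 8.9, 11.4 and 7.4 CPM in the olaparib libraries in OVCAR3. TAP1 was at 6.78, 5.34, 5.75 and 6.07 CPM in the DMSO libraries and 25.3, 21.9, 22.8 and 24.1 CPM in the olaparib libraries in UWB1.289, where the change was larger by 1.28 ± 0.256 (SE, adjusted p = 0.00143) on the log2 scale. PSMB9, a catalytic subunit of the immunoproteasome that lies beside TAP1 in a stretch of 15.7 kb, was at 4.63 to 6.74 CPM with DMSO and 8.12 to 11.9 CPM with olaparib in OVCAR3 and at 2.26 to 3.3 CPM with DMSO and 10.6 to 14.7 CPM with olaparib in UWB1.289. B2M (0.67), HLA-C (0.6), HLA-E (0.39), TAPBP (0.39) and PSME2 (0.39) rose by less than 2-fold. HLA genes share sequence and are polymorphic, and how that bears on their counts was not tested.

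Among acute phase and complement genes, 4 of the 7 members rose by more in OVCAR3 and 1 by more in UWB1.289. Of 15 tested genes, 8 passed as higher and 1 as lower, and 7 were members. SAA1 (ENSG00000173432, chr11:18266260-18269977), serum amyloid A, was at 0.165, 0, 0 and 0 CPM in the DMSO libraries and 3.73, 3.28, 1.85 and 4.25 CPM in the olaparib libraries in OVCAR3. The single DMSO read against 89 gave a ratio of 85.4 with a 95% counting interval of 14.9 to 3410. In UWB1.289, SAA1 was at 0.301, 1, 0 and 0.528 CPM in the DMSO libraries and 2.81, 3.91, 2.73 and 3.52 CPM in the olaparib libraries, and SAA1 has a near-identical neighbour, so its counts are uncertain. PTX3, a soluble pattern-recognition pentraxin, was at 1.32, 1.4, 2.32 and 1.43 CPM in the DMSO libraries and 27.7, 36.2, 26.2 and 25.4 CPM in the olaparib libraries in OVCAR3. In UWB1.289, PTX3 was at 21.4, 23.5, 26.3 and 20.1 CPM in the DMSO libraries and 52.8, 61.9, 69 and 60.7 CPM in the olaparib libraries, so that the OVCAR3 olaparib level lay near the UWB1.289 DMSO level. LCN2, an iron-siderophore-binding lipocalin, was at 6.94 to 7.24 CPM with DMSO and 29 to 39.8 CPM with olaparib in OVCAR3 and at 121 to 158 CPM with DMSO and 233 to 339 CPM with olaparib in UWB1.289 (additive change 1.45 ± 0.146, SE, adjusted p = 7.91e-08). Complement C3 was at 74.3 to 90 CPM with DMSO and 244 to 275 CPM with olaparib in OVCAR3 and at 32.6 to 62.3 CPM with DMSO and 80.1 to 128 CPM with olaparib in UWB1.289 (additive change 1.37 ± 0.113, SE, adjusted p = 2.88e-09). CD55 (1.01) and CD59 (0.32), which shield cells from complement, and the protease inhibitor SERPINA1 (0.89) were members as well.

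Cell-surface ligands and receptors read by immune cells were among the members. Of 16 tested genes of immune ligands and adhesion, 11 passed as higher and 1 as lower. ICAM1, the ligand of leukocyte integrins, was at 2.15, 3.15, 1.74 and 1.72 CPM in the DMSO libraries and 7.77, 10.8, 9.4 and 11.7 CPM in the olaparib libraries in OVCAR3. In UWB1.289, ICAM1 was at 36.6, 39.2, 36.7 and 42.6 CPM in the DMSO libraries and 81.3, 77.4, 87 and 85.7 CPM in the olaparib libraries, and the additive change was 1.37 ± 0.134 (SE, adjusted p = 5.29e-08). CD40, a receptor of the tumour necrosis factor family, was at 4.73 to 8.54 CPM with DMSO and 13 to 24.1 CPM with olaparib in OVCAR3 and at 27.3 to 41.8 CPM with DMSO and 52.7 to 94.3 CPM with olaparib in UWB1.289 (additive change 1.24 ± 0.145, SE, adjusted p = 8.17e-07). LGALS9, the galectin that binds TIM-3, was at 36.1 to 48 CPM with DMSO and 52.3 to 68.1 CPM with olaparib in OVCAR3 and at 1.6 to 2.24 CPM with DMSO and 10.9 to 14.8 CPM with olaparib in UWB1.289, from a DMSO level that was far lower in UWB1.289. MICB (0.86), a ligand of NKG2D, and PVR (0.4), a ligand of DNAM-1 and TIGIT, completed the 5 members. TNFRSF9, the costimulatory receptor 4-1BB, was at 0.452, 0.501, 1.28 and 1.58 CPM in the DMSO libraries and 4.62, 2.67, 4.01 and 5.52 CPM in the olaparib libraries in UWB1.289. In OVCAR3 it had 1 read with DMSO against 57 with olaparib, a ratio of 54.7 (9.43 to 2200). TLR2, a receptor for bacterial lipoproteins, had 0 reads in the OVCAR3 DMSO libraries and 15 with olaparib, which is at least 4.8-fold higher against a floor of 3 counts over the group. In UWB1.289 TLR2 was at 1.51, 2.5, 2.39 and 3.3 CPM in the DMSO libraries and 7.76, 7.47, 5.46 and 6.13 CPM in the olaparib libraries.

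Growth-arrest and stress genes rose in smaller numbers. CDKN1A (ENSG00000124762, chr6:36676460-36687337), the p21 inhibitor of cyclin-dependent kinases, was at 6.45, 5.78, 8.11 and 7.89 CPM in the DMSO libraries and 17.7, 21.9, 19.5 and 18.1 CPM in the olaparib libraries in OVCAR3. In UWB1.289, CDKN1A was at 3.47, 2.84, 4.79 and 2.51 CPM in the DMSO libraries and 6.77, 6.94, 9.47 and 5.21 CPM in the olaparib libraries, and the additive change was 1.3 ± 0.151 (SE, adjusted p = 8.17e-07). CDKN2B, the p15 inhibitor, was at 9.76 to 12.5 CPM with DMSO and 22.2 to 32.7 CPM with olaparib in OVCAR3 and at 10.5 to 20.2 CPM with DMSO and 21.7 to 34.4 CPM with olaparib in UWB1.289 (additive change 1.03 ± 0.14, SE, adjusted p = 7.15e-06). Of 30 tested p53 target genes, 10 passed as higher and 3 as lower, with the higher members CDKN1A, GDF15, GADD45A (0.83), PLK3 (0.78), AEN (0.71), PMAIP1 and BBC3 and the lower member RRM2B (-0.87), which supplies deoxynucleotides for repair. GDF15, a stress-induced cytokine, was at 7.61 to 14.9 CPM with DMSO and 27.1 to 36.5 CPM with olaparib in OVCAR3 and at 102 to 143 CPM with DMSO and 182 to 221 CPM with olaparib in UWB1.289. The pro-apoptotic BH3 genes PMAIP1 (0.83) and BBC3 (0.37) rose by less than 2-fold and BIK by 1.4 ± 0.202 (SE, adjusted p = 1.59e-05) on the log2 scale. These were the only members among 34 BCL2 family and death receptor genes, of which 14 passed as higher and 2 as lower. DNA repair genes of homologous recombination and the Fanconi pathway had 0 members among 43 tested, of which 4 passed as higher and 2 as lower at an adjusted p below 0.1, and base excision repair with the DNA-damage PARPs had 0 among 15, of which 1 passed in each direction. Of 44 DNA replication genes 5 passed as higher and 2 as lower in the additive fit, but the lines differed. In OVCAR3 20 passed as higher and 0 as lower, and in UWB1.289 0 passed as higher and 14 as lower. The share of all genes tested that passed within each line is not given here. Median log2 fold changes of the list were 0.22 in OVCAR3 and -0.20 in UWB1.289, against -0.0062 and 0.0 over all genes tested. The interaction contrast passed for 22 of the 44, all with the lower value in UWB1.289, against 10.9% of all genes tested in either direction. The lower member DTL was alone, at -0.25 in OVCAR3 (adjusted p = 0.147) and -0.8 in UWB1.289 (adjusted p = 3.05e-05), and 4 genes were apart in opposite directions.

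Immediate early and growth factor genes moved in both directions. Of 23 tested AP-1 and immediate early factors, 12 passed as higher and 2 as lower, with 7 higher members and 1 lower. ATF3, a stress-induced factor of the ATF and AP-1 family, was at 10.4, 9.63, 6.08 and 7.75 CPM in the DMSO libraries and 22.1, 22.8, 19.8 and 17.8 CPM in the olaparib libraries in OVCAR3. In UWB1.289, ATF3 was at 6.48, 8.34, 5.11 and 5.81 CPM in the DMSO libraries and 27.9, 21.5, 20.2 and 24.5 CPM in the olaparib libraries, and the additive change was 1.57 ± 0.137 (SE, adjusted p = 6.96e-09). IER3 was at 84 to 140 CPM with DMSO and 500 to 751 CPM with olaparib in OVCAR3 and at 148 to 198 CPM with DMSO and 237 to 294 CPM with olaparib in UWB1.289, with a difference between the lines of -1.85 ± 0.171 (SE, adjusted p = 8.74e-09). MAFF (1.2), KLF4 (0.88), KLF6 (0.81), IER5 (0.6) and JUNB (0.41) also rose, while EGR1 fell in both lines as described with the lower members. AREG, an EGFR ligand, was at 7.31 to 12.4 CPM with DMSO and 51.5 to 69.3 CPM with olaparib in OVCAR3 and at 92.5 to 134 CPM with DMSO and 152 to 213 CPM with olaparib in UWB1.289 (additive change 1.43 ± 0.193, SE, adjusted p = 6.78e-06). HBEGF, another EGFR ligand, was at 5.95 to 7.82 CPM with DMSO and 11.2 to 12.8 CPM with olaparib in OVCAR3 and at 17.3 to 25.5 CPM with DMSO and 42.7 to 56.9 CPM with olaparib in UWB1.289 (additive change 1.09 ± 0.113, SE, adjusted p = 1.17e-07), and the receptor gene ERBB2 was a lower member (-0.47). INHBA (ENSG00000122641, chr7:41667168-41705834), the subunit of activin A, was at 9.35, 10.8, 9.1 and 11 CPM in the DMSO libraries and 49.4, 54.8, 62.9 and 59 CPM in the olaparib libraries in UWB1.289. In OVCAR3, INHBA was at 0.165, 0.175, 0.145 and 0.861 CPM in the DMSO libraries and 2.18, 5.31, 2.99 and 2.33 CPM in the olaparib libraries, with the highest DMSO library far above the other 3, and the additive change was 2.56 ± 0.169 (SE, adjusted p = 6.05e-11). Of 37 tested genes of BMP, activin and TGF-beta signalling, 12 passed as higher and 9 as lower. SMAD3 (0.84), TGFBI (0.94) and FSTL3 (0.46) of that list rose, and the activin subunit INHBB (-0.74) fell. DUSP5, a phosphatase of ERK (additive change 1.01 ± 0.15, SE, adjusted p = 2.37e-05), was the lone member of the 16 ERK feedback genes, of which 7 passed as higher and 0 as lower. Taken alone, OVCAR3 had 10 that passed as higher and 0 as lower, and UWB1.289 had 3 and 3. Shares of all genes tested that passed within each line are not given here. The interaction contrast passed for 11 of the 16, 10 of them with the lower value in UWB1.289, against 10.9% of all genes tested.

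Genes of the matrix, its proteases and the epithelial surface were also among the called members. Of 39 tested matrix and integrin genes, 20 passed as higher and 8 as lower, of 18 proteases and inhibitors 10 and 0, and of 31 keratin and junction genes 11 and 10. THBS1, thrombospondin, was at 4.13 to 7.18 CPM with DMSO and 23.3 to 30.2 CPM with olaparib in OVCAR3 and at 42.5 to 63.4 CPM with DMSO and 97 to 130 CPM with olaparib in UWB1.289 (additive change 1.49 ± 0.151, SE, adjusted p = 8.63e-08). The integrin subunit ITGA2 (additive change 1.03 ± 0.129, SE, adjusted p = 2.2e-06) and the laminin chains LAMB3 (0.96) and LAMA3 (0.91) rose, and LAMA5 (-0.59) fell. SERPINE2, an inhibitor of thrombin and plasminogen activators, was at 3.04 to 3.68 CPM with DMSO and 19 to 23.9 CPM with olaparib in OVCAR3 and at 5.02 to 7.84 CPM with DMSO and 8.42 to 14.6 CPM with olaparib in UWB1.289. PLAUR, the urokinase receptor, was at 11.2 to 15.5 CPM with DMSO and 29.1 to 51.3 CPM with olaparib in OVCAR3 and at 68.9 to 82.5 CPM with DMSO and 102 to 149 CPM with olaparib in UWB1.289. ADAMTS9, a secreted metalloproteinase, was at 3.31, 1.4, 3.48 and 3.44 CPM in the DMSO libraries and 30, 21.1, 23.6 and 25.4 CPM in the olaparib libraries in OVCAR3 and rose to a like level in UWB1.289, where it was at 6.33, 8.18, 8.3 and 8.32 CPM in the DMSO libraries and 25.8, 24.2, 34.5 and 33.7 CPM in the olaparib libraries. Keratins KRT6A (additive change 1.62 ± 0.174, SE, adjusted p = 2.04e-07) and KRT17 (additive change 1.28 ± 0.185, SE, adjusted p = 1.73e-05), of activated squamous epithelium, and the tight junction gene CLDN1 (additive change 1.13 ± 0.183, SE, adjusted p = 7.17e-05) were higher members, and KRT6A has close copies. The desmosomal cadherin DSC2 (-0.83) was a lower member. IL4I1, a secreted enzyme that oxidises amino acids, was at 3.64, 3.15, 3.33 and 1.58 CPM in the DMSO libraries and 20.4, 27.2, 18.2 and 24.4 CPM in the olaparib libraries in OVCAR3. In UWB1.289, IL4I1 was at 13.1, 18.5, 16 and 15.8 CPM in the DMSO libraries and 64.6, 68.3, 68.4 and 63 CPM in the olaparib libraries, and the additive change was 2.36 ± 0.14 (SE, adjusted p = 5.73e-12).

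The lower members were led by a small set of genes with no common list. Of the 273, 241 were on none of the 36 lists. GGT6 (ENSG00000167741, chr17:4556927-4560818), of the gamma-glutamyltransferase family, was at 10.3, 5.25, 8.25 and 7.03 CPM in the DMSO libraries and 2.49, 0.468, 1.99 and 1.92 CPM in the olaparib libraries in OVCAR3. In UWB1.289, GGT6 was at 2.41, 0.667, 0.638 and 1.19 CPM in the DMSO libraries and 0.495, 0.356, 0 and 0.46 CPM in the olaparib libraries, at levels of a few reads, and the additive change was -2.08 ± 0.333 (SE, adjusted p = 6.14e-05). EGR1 (ENSG00000120738, chr5:138465479-138469303), a zinc finger factor of the immediate early response, was at 170, 166, 189 and 224 CPM in the DMSO libraries and 80, 61, 59.5 and 68.8 CPM in the olaparib libraries in OVCAR3. In UWB1.289, EGR1 was at 28.8, 24.7, 27.9 and 22.3 CPM in the DMSO libraries and 2.48, 4.09, 2.25 and 5.67 CPM in the olaparib libraries. It fell in both lines and by more in UWB1.289, with a difference of -1.35 ± 0.24 (SE, adjusted p = 0.000348) on the log2 scale. METTL7A (ENSG00000185432, chr12:50923472-50932510), a methyltransferase of intracellular membranes, was at 13.1, 15.9, 15.8 and 14.2 CPM in the DMSO libraries and 2.95, 3.59, 2.56 and 3.7 CPM in the olaparib libraries in OVCAR3. In UWB1.289, METTL7A was at 17, 17, 13.4 and 13.2 CPM in the DMSO libraries and 3.8, 8.72, 7.06 and 3.37 CPM in the olaparib libraries, and the additive change was -1.78 ± 0.179 (SE, adjusted p = 7.88e-08).

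In the additive fit the remaining called lower members fell by 2-fold to 4-fold, but many of them fell by less than 2-fold in UWB1.289. SATB1, an organiser of chromatin loops, was at 8.58 to 11.8 CPM with DMSO and 2.81 to 4.66 CPM with olaparib in OVCAR3 and at 8.29 to 11.7 CPM with DMSO and 3.91 to 5.62 CPM with olaparib in UWB1.289. SLC2A12, a glucose transporter, was at 84 to 96.9 CPM with DMSO and 31.7 to 36.4 CPM with olaparib in OVCAR3 and at 13.6 to 16.6 CPM with DMSO and 8.59 to 12.5 CPM with olaparib in UWB1.289. ALDH3B1, an aldehyde dehydrogenase, was at 48.8 to 63.8 CPM with DMSO and 24.2 to 32.8 CPM with olaparib in OVCAR3 and at 26.2 to 32 CPM with DMSO and 13 to 16.8 CPM with olaparib in UWB1.289. The groups of all 3 were apart in each line. DEPTOR (additive change -1.12 ± 0.177, SE, adjusted p = 5.09e-05), an inhibitor of mTOR, MAP2K6 (additive change -1.11 ± 0.157, SE, adjusted p = 1.35e-05), an activator of p38, SULT2B1 (additive change -1.1 ± 0.28, SE, adjusted p = 0.00629), which sulfates cholesterol, and ADAMTS15 (additive change -1.06 ± 0.118, SE, adjusted p = 3.37e-07), a protease of proteoglycans, also fell, as did RP11-469H8.6, a locus with a clone name, and HMGB1P1. Log2 fold changes in UWB1.289 were -0.58 for SLC2A12, -0.63 for SULT2B1 (adjusted p = 0.316), -0.7 for ADAMTS15 and -0.78 for MAP2K6. They were -0.86 for HMGB1P1, -0.88 for DEPTOR and -0.98 for ALDH3B1 in that line, while SATB1 (-1.02) and H1-4 (-1.3) passed 2-fold there. The values of these genes in OVCAR3 ran from -1.02 for ALDH3B1 to -1.7 for SULT2B1. The linker histone gene H1-4 was at 20.5, 16.3, 27.1 and 33 CPM in the DMSO libraries and 8.86, 7.8, 8.54 and 12.5 CPM in the olaparib libraries in OVCAR3 and at 11.8, 10.7, 27.3 and 15.3 CPM in the DMSO libraries and 5.45, 2.67, 8.18 and 9.65 CPM in the olaparib libraries in UWB1.289, and was the only member among 26 tested replication-dependent histone genes, of which 3 passed as higher and 9 as lower and 4 were apart in opposite directions.

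Cholesterol and fatty acid synthesis genes, which are controlled by the SREBP factors, fell together by small amounts. Of 32 tested genes, 25 passed as lower and 0 as higher, and the median was -0.39, but none was called at 2-fold in the additive fit. INSIG1 passed 2-fold in OVCAR3 taken alone, at -1.07 ± 0.147 (SE, adjusted p = 2.81e-06). HMGCS1 (ENSG00000112972, chr5:43287470-43313512), which makes HMG-CoA for cholesterol, was at 403, 513, 451 and 472 CPM in the DMSO libraries and 241, 211, 245 and 242 CPM in the olaparib libraries in OVCAR3. In UWB1.289, HMGCS1 was at 483, 403, 360 and 408 CPM in the DMSO libraries and 226, 269, 236 and 232 CPM in the olaparib libraries. The DMSO and olaparib levels were alike in the lines, and the additive change was -0.87 ± 0.0676 (SE, adjusted p = 9.71e-10). INSIG1, the sterol-regulated anchor of SREBP processing, was at 26.5, 38.5, 30.7 and 32.3 CPM in the DMSO libraries and 20.1, 11.7, 15.9 and 13.3 CPM in the olaparib libraries in OVCAR3. In UWB1.289, INSIG1 was at 124, 121, 107 and 109 CPM in the DMSO libraries and 59.8, 87.9, 66.9 and 68 CPM in the olaparib libraries, and its change was -0.86 ± 0.104 (SE, adjusted p = 1.39e-06). TM7SF2 (-0.84), SCD (-0.82), ELOVL6 (-0.62), FDFT1 (-0.57), MSMO1 (-0.56), LSS (-0.46), FADS2 (-0.44), SQLE (-0.41), FADS1 (-0.38), DHCR7 (-0.37), FASN (-0.34) and FDPS (-0.28) were the other 12 lower members. The difference between lines passed for 2 of the 14, in opposite directions. The sterol response element TCACNCCAC was in 0 of the 14 promoters matched to 11 of these members and in 1.06% of those of all genes tested, which says only that these letters are not in these windows. With scaling by total counts alone the list median was -0.37.

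Ribosomal protein genes were lower by still smaller amounts. Of 76 tested, 42 passed as lower and 0 as higher, with a median log2 fold change of -0.16, or -0.13 with scaling by total counts alone. Taken alone, OVCAR3 had 41 that passed as lower and UWB1.289 had 12, with medians of -0.19 and -0.11. Shares of all genes tested that passed within each line are not given here. The 6 members included RPL7A, RPL3, RPL6, RPL23 and RPL5, and RPL7A was at 2260, 2380, 2280 and 2280 CPM in the DMSO libraries and 1740, 1860, 1880 and 1710 CPM in the olaparib libraries in OVCAR3. In UWB1.289, RPL7A was at 3480, 3410, 3450 and 3280 CPM in the DMSO libraries and 2680, 2990, 2790 and 2620 CPM in the olaparib libraries, and the change was -0.33 ± 0.0463 (SE, adjusted p = 1.2e-05). Many ribosomal protein genes have processed copies in the genome that can share their reads. KRT18, a keratin of simple epithelia and among the most abundant members, was at 1850, 1700, 1830 and 1810 CPM in the DMSO libraries and 850, 805, 882 and 996 CPM in the olaparib libraries in OVCAR3. In UWB1.289, KRT18 was at 4450, 4080, 4260 and 4030 CPM in the DMSO libraries and 3720, 3230, 2910 and 2870 CPM in the olaparib libraries, so its groups were apart in both lines. It fell by more in OVCAR3, and the difference between the lines was 0.62 ± 0.111 (SE, adjusted p = 0.000376). WNT pathway genes had 3 lower members, WNT5A (additive change -0.75 ± 0.134, SE, adjusted p = 0.000244), LGR4 (additive change -0.5 ± 0.0874, SE, adjusted p = 0.000172) and FZD2 (-0.46), among 25 tested, of which 5 passed as lower and 3 as higher.

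**Figure D4:**
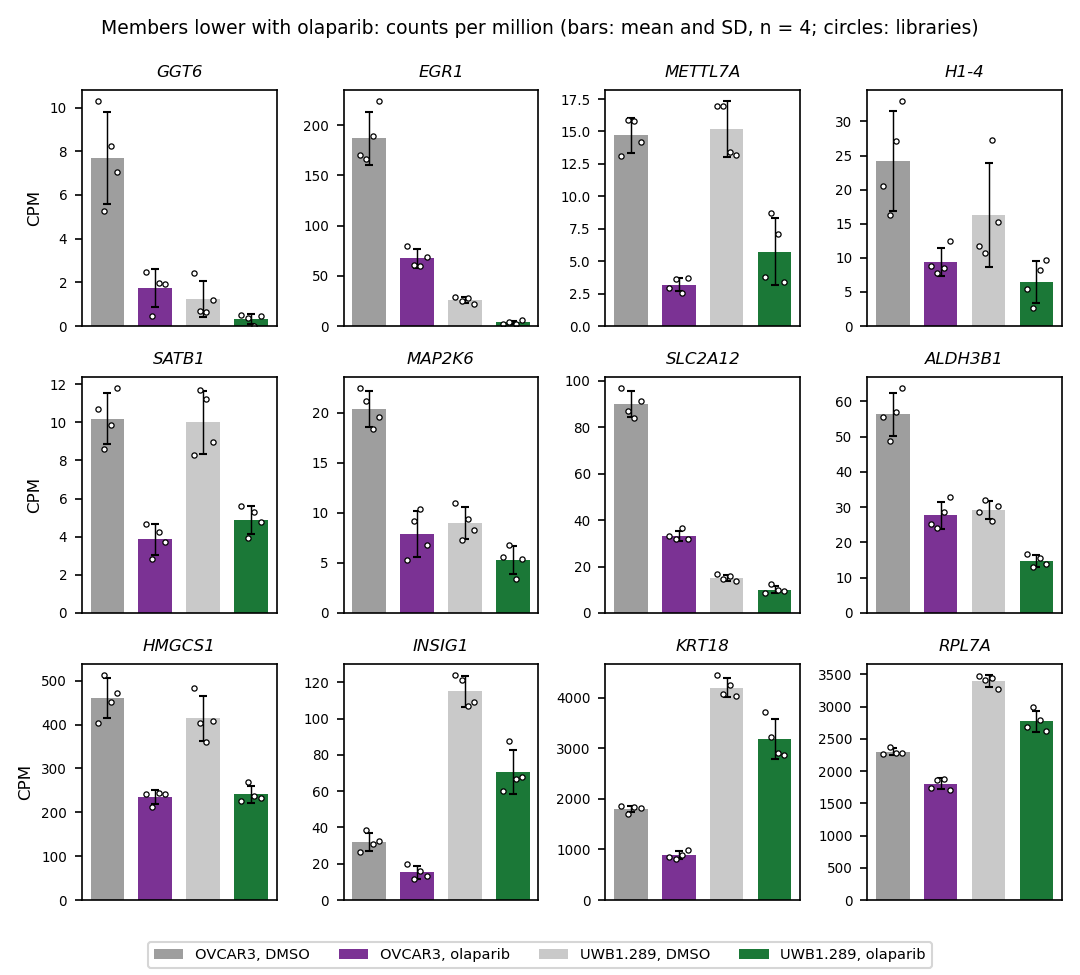
CPM of 12 lower members in the 4 groups (bars are the mean with SD, n = 4, and circles are libraries; each panel has its own linear axis from 0). Olaparib libraries lie below the DMSO libraries of the same line in every panel, with EGR1 at 2.25 to 5.67 CPM in UWB1.289 with olaparib against 22.3 to 28.8 CPM with DMSO.

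The remaining lists held few members. Mitosis had BIRC5 (additive change 0.26 ± 0.0572, SE, adjusted p = 0.00166) alone among 40 tested genes, of which 12 passed as higher and 1 as lower. Taken alone, OVCAR3 had 19 mitosis genes that passed as higher and UWB1.289 had 1, with median log2 fold changes of 0.24 and 0.03. Shares of all genes tested that passed within each line are not given here. The YAP and TEAD list had ANKRD1 (additive change 0.68 ± 0.0684, SE, adjusted p = 7.28e-08), while 1 of its 19 genes passed as higher and 4 as lower. NRF2 targets had FTH1 (additive change 0.31 ± 0.0574, SE, adjusted p = 0.000312), with 2 of 18 higher and 0 lower. The integrated stress and unfolded protein response had ATF5 (additive change 0.62 ± 0.11, SE, adjusted p = 0.000201), with 4 of 28 higher and 5 lower. Glycolysis and hypoxia had ADM (additive change 0.73 ± 0.125, SE, adjusted p = 0.000133), with 2 of 17 higher and 0 lower, and lysosome and autophagy had CTSS (additive change 0.98 ± 0.165, SE, adjusted p = 0.00011), with 8 of 27 higher and 3 lower. The G1 list had CCND3 (0.84) beside CDKN1A and CDKN2B, with 5 of 16 higher, 4 lower and 2 apart in opposite directions. No member was found among 12 genes of the mesenchymal state, of which 5 passed as higher, 18 S100 and annexin genes, of which 4 passed as higher and 2 as lower, 6 metallothioneins, of which 3 passed as higher, or 13 mitochondrially encoded genes, of which 4 passed as higher and 2 as lower.

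The size of the change differed between the lines for many members. An interaction contrast in a fit with the 4 groups tested the UWB1.289 effect minus the OVCAR3 effect, and 1555 of all genes tested passed an adjusted p below 0.1 (10.9%). Among the 649 members 157 passed: 82 higher members rose by more in OVCAR3 and 42 by more in UWB1.289, and 29 lower members fell by more in OVCAR3 and 4 by more in UWB1.289. Interferon-induced effectors went the other way from most members, with 18 of 23 rising by more in UWB1.289 and BST2 alone by more in OVCAR3 (1.01 against 0.45). For chemokines and cytokines 6 of 13 rose by more in OVCAR3 and 0 by more in UWB1.289, with median log2 fold changes of 3.13 and 1.68. For acute phase and complement genes 4 of 7 rose by more in OVCAR3 and 1 by more in UWB1.289. CXCL8 differed by -2.91 ± 0.31 (SE, adjusted p = 1.25e-07), PTX3 by -2.7 ± 0.249 (SE, adjusted p = 8.49e-09) and CLDN1 by -1.67 ± 0.124 (SE, adjusted p = 1.58e-10). IFIT3 differed by 2.81 ± 0.209 (SE, adjusted p = 1.58e-10), LGALS9 by 2.16 ± 0.234 (SE, adjusted p = 1.63e-07) and GBP4 by 2.41 ± 0.42 (SE, adjusted p = 0.000268) in the other direction. CASC19, a long non-coding RNA, rose from 1 read to 86 in OVCAR3, a ratio of 82.6 (14.4 to 3300), and was at 11.5 to 16 CPM with DMSO and 28.7 to 39.2 CPM with olaparib in UWB1.289. CXCL3, HLA-B, RELB and CDKN1A missed the threshold, with differences of -0.11 ± 0.534 (SE, adjusted p = 0.955), -0.13 ± 0.148 (SE, adjusted p = 0.705), -0.46 ± 0.178 (SE, adjusted p = 0.122) and -0.37 ± 0.303 (SE, adjusted p = 0.536), which does not show that they were equal. Of the members, 70 rose by more than 2-fold at an adjusted p below 0.1 in each line taken alone, among 87 such genes in all (0.611%), and 7 fell likewise, among 14 (0.0983%).

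**Figure D5:**
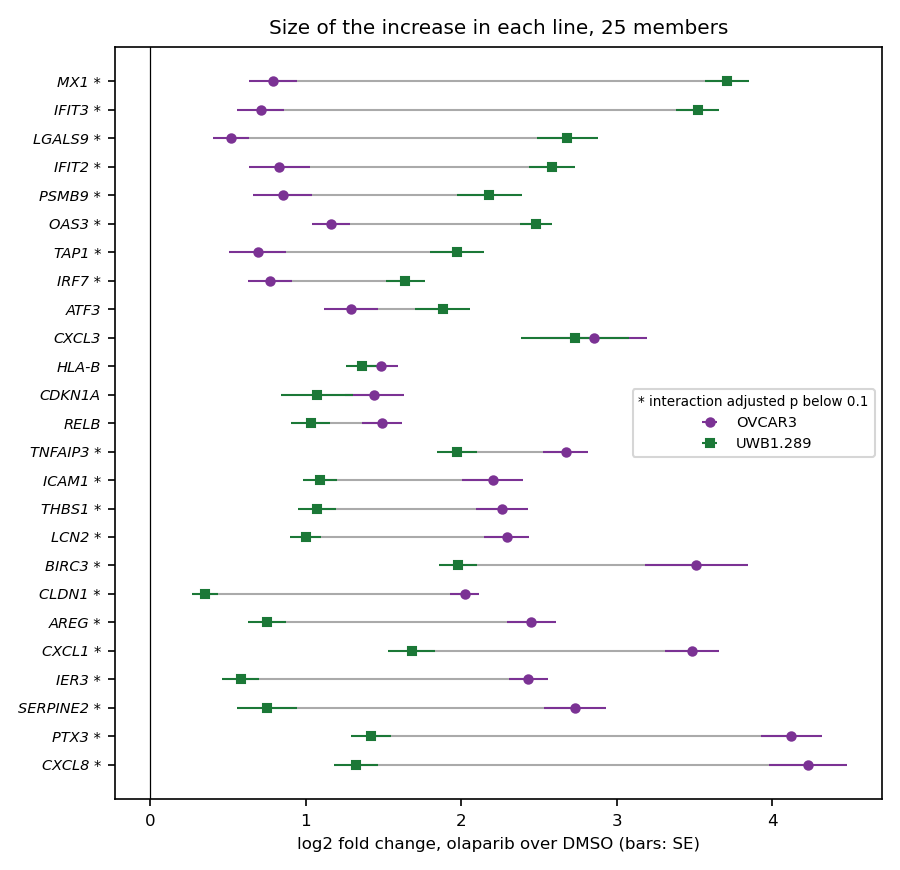
Log2 fold change of olaparib over DMSO with its SE in OVCAR3 (circles) and UWB1.289 (squares) for 25 higher members, ordered by the difference between the lines; an asterisk marks the 20 with an interaction adjusted p below 0.1. MX1 and IFIT3 lie farthest to the right in UWB1.289, and CXCL8 and PTX3 in OVCAR3.

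Genes that were apart in both lines in opposite directions give the contrast to the members. FAM43A was at 38 to 50.3 CPM with DMSO and 16.7 to 25.4 CPM with olaparib in OVCAR3 and at 9.04 to 11.7 CPM with DMSO and 21.5 to 26.3 CPM with olaparib in UWB1.289. The histone gene H2BC8 was at 16.5 to 25.2 CPM with DMSO and 5.62 to 10.3 CPM with olaparib in OVCAR3 and at 1.92 to 2.64 CPM with DMSO and 3.74 to 7.51 CPM with olaparib in UWB1.289. BCAS1, TCIRG1 and LRRC8D-DT were the others with the largest opposite changes, and MUC15 was called down in the additive fit (additive change -1.21 ± 0.288, SE, adjusted p = 0.00358) although it was higher with olaparib in UWB1.289, with 2 reads against 9, a ratio of 4.98 (1.03 to 47.4). With DESeq2 in the same additive design MUC15 was not called, at -0.49 (adjusted p = 0.586). At the 2-fold threshold, SLC12A2 (1.0) and HMGB1P1 (-1.0) lay just inside, and KLHL14 (-0.99) and FAM107A (0.99) just outside. HMGB1P1 is listed under a pseudogene symbol and may share reads with its parent gene.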

How the data were processed

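Gene expression was measured by 3′ mRNA sequencing in 16 libraries, 4 each of OVCAR3 and UWB1.289 with DMSO or olaparib. The deposited values are raw read counts per gene. Before deposit the authors used BBDuk for trimming, STAR (version 2.7.9a, per the submitters' processing notes) for alignment to hg38 and featureCounts (version 2.0.0) for counting. How reads on shared or overlapping genes and on strand were treated is not given in the sources used here. Samples were grouped by the labels. Total counts per library were 5599571 to 7730228.

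Genes passing filterByExpr (14243 of 59428 listed) were scaled by the trimmed mean of M values and fitted with edgeR 4.0.16 (glmQLFit, glmQLFTest, R 4.3.3), with line and treatment as additive terms, and with the 4 groups for effects within a line and the interaction. The SE was taken from the F statistic, as the size of the log2 fold change over the root of F. A call needed an adjusted p below 0.1, a change beyond 2-fold and a mean normalised count above 10. Alternatives were DESeq2 1.42.0, its size factors, scaling by total counts, no filter, other thresholds, the mean of the line contrasts, a replicate block and each library left out in turn. The fit was tested on simulated data. Where a group had 1 to 3 counts, the ratio is given with a 95% exact interval, and where it had 0, against a floor of 3 counts over the group. Both cover counting error only, and the fitted fold changes of such genes are no bound. Gene coordinates are from the GENCODE annotation of GRCh38 (hg38), and promoter sequences from RefSeq.

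The members and the gene lists were chosen with earlier results of these data known. The genes named were the 12 largest called increases and decreases among members, up to 4 members of each list, PARP1, PARP2, BRCA1 and CDKN1A, the 5 largest interactions in each direction, the 6 largest opposite changes and the genes at the 2-fold threshold; other members of a list are given by their fold change alone. Some genes under these rules are not reported here. Same-numbered libraries were compared over 9542 genes: their deviations from the group means correlated at 0.0324 to 0.167 in OVCAR3 and at 0.137 to 0.225 in UWB1.289. Differently numbered libraries correlated at -0.211 to 0.135 in OVCAR3 and at -0.212 to 0.152 in UWB1.289. Not every same-numbered pair was above 0.1, and the numbers were not taken to pair the samples. That cutoff is no test of pairing, and the replicate block was run as an alternative.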

Additional observations from a re-analysis of the deposited data

Results flagged for a closer look

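In 18 of 348 groups of 4 libraries examined, over 89 named genes, 1 library stood far from the other 3 by Dixon's test, and chance marks about 1 in 20 groups. In the OVCAR3 DMSO group these were INHBA at 0.861 CPM in replicate 4, ADAMTS9 at 1.4 CPM in replicate 2, OAS3 at 18 CPM in replicate 2, PTX3 at 2.32 CPM in replicate 3, PLAUR at 11.2 CPM in replicate 4, CLDN1 at 66.7 CPM in replicate 2, RPL7A at 2380 CPM in replicate 2 and GBP4 at 19.2 CPM in replicate 4. In the UWB1.289 DMSO group these were ADAMTS9 at 6.33 CPM in replicate 1, IFIT3 at 9.34 CPM in replicate 2, RELB at 22.5 CPM in replicate 3 and SLC12A2 at 41.7 CPM in replicate 3. In the UWB1.289 olaparib group these were IRF1 at 39.0 CPM in replicate 1 and MUC15 at 0.963 CPM in replicate 3. In the OVCAR3 olaparib group these were HMGCS1 at 211 CPM in replicate 2, CTSS at 20.7 CPM in replicate 4, TLR2 at 0.156 CPM in replicate 2 and HMGB1P1 at 1.4 CPM in replicate 1. 

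The olaparib effect differed between the lines for 47 named genes at an adjusted p below 0.1 in the interaction contrast of edgeR's quasi-likelihood test. The values are UWB1.289 log2 fold changes minus OVCAR3 log2 fold changes, so that a positive value marks a larger rise, or a smaller fall, in UWB1.289. Positive differences were found for MX1 (2.92), IFIT3 (2.81), GBP4 (2.41), LGALS9 (2.16), IFIT2 (1.75), PSMB9 (1.34), OAS3 (1.32), TAP1 (1.28), IRF7 (0.87), SLC2A12 (0.85), ADAMTS15 (0.74), IRF1 (0.70), NFKBIZ (0.64), KRT18 (0.62) and HBEGF (0.56). Negative differences were found for CASC19 (-4.50), TLR2 (-3.44), TNFRSF9 (-3.10), CXCL8 (-2.91), PTX3 (-2.70), SERPINE2 (-1.98), IER3 (-1.85), CXCL1 (-1.80), AREG (-1.69), CLDN1 (-1.67), KRT6A (-1.53), BIRC3 (-1.53), BIK (-1.40), EGR1 (-1.35), DUSP5 (-1.29), LCN2 (-1.28), THBS1 (-1.19), ADAMTS9 (-1.15), ICAM1 (-1.10), IL4I1 (-0.89), PLAUR (-0.86), GDF15 (-0.74), TNFAIP3 (-0.70), SLC12A2 (-0.65), C3 (-0.56) and DTL (-0.55), and the values of TNFRSF9, CASC19 and TLR2 rest on OVCAR3 DMSO groups with 0 or 1 reads. Among genes that were apart in opposite directions the differences were BCAS1 (3.17), MUC15 (3.45), H2BC8 (2.66), FAM43A (2.42), LRRC8D-DT (2.55) and TCIRG1 (-2.16).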

How the results depend on the processing

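The count of genes called up stayed between 254 and 317 under DESeq2, its size factors, scaling by total counts, no filter, an adjusted p below 0.05, the mean of the line contrasts, the replicate block and each library left out in turn, and that called down between 80 and 117. The counts of genes called under scaling by total counts, and of members called under each setting, were added after seeing the data. With no fold threshold 1882 genes were called up and 1891 down, with 368 and 271 of them members. With a mean count above 50 they were 134 and 39, with 9 members called down. Called in each line separately they were 87 and 14, with 70 and 7 members. Differences between the lines beyond 2-fold numbered 555. Without each library in turn, membership was judged anew on the libraries left, and a rule over fewer libraries is easier to meet. Higher members then numbered 404 to 483, against 376, and lower members 292 to 367, against 273. The count of members called down was 13 to 27, against 14. It was 27 without UWB1.289 olaparib replicate 1 and 23 without UWB1.289 DMSO replicate 3. How much of this came from the easier rule was not tested. With the replicate block, as if the samples were paired by number, 262 genes were called up, 102 down and 1873 differed between the lines, and no count moved by more than 1.5 times. MUC15 reversed to 0.31 (adjusted p = 0.667) under the mean of the line contrasts, which weighs its opposite changes equally. Its call was also lost with DESeq2 (-0.49, adjusted p = 0.586). DESeq2 moved the median of the chemokine list to 1.90 and of the histone list to -0.22. DESeq2 and edgeR shared 257 genes called up and 84 called down. Depth limits genes with few reads, such as CXCL10, OAS2 and SAA1 in OVCAR3 and GGT6 in UWB1.289.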
